A study of Mus musculus with 8 samples.

Results

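Notch receptors, their ligands and their target genes were examined in GLI2+ stromal cells of the adult mouse lung as 10 genes: the receptors Notch1, Notch2, Notch3 and Notch4, the ligands Jag1, Dll1 and Dll4, and the targets Hes1, Hey1 and Heyl. They were chosen by gene symbol among the 49671 gene identifiers of the count table, without regard to their values. All 10 were found and all 10 passed the filter on low counts that left 20162 genes to test. The SmoM2-labelled group was 4 Gli2creERT2-tdt:R26RYFP/SmoM2 mice, and the control group was 4 Gli2creERT2-tdt:R26RYFP mice. Cells in both groups carried a tamoxifen-inducible Cre recombinase driven by Gli2 and a Cre-dependent yellow fluorescent reporter, and the SmoM2 group also carried SmoM2, a permanently active form of the Hedgehog transducer Smoothened. Tamoxifen was given intraperitoneally at 200 mg/kg per day for 5 days to the SmoM2 mice, and whether the control mice were dosed is not stated in the labels. Live reporter-positive cells were sorted from digested whole lung and their polyadenylated RNA was sequenced, so each library averages all cells in which the Gli2-driven Cre had acted. In such bulk samples fewer cells of a type and less RNA per cell cannot be told apart.

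Notch signalling passes between touching cells. A ligand of the Jagged or Delta-like family on a neighbour engages a Notch receptor, metalloproteases and gamma-secretase cut the receptor, and its intracellular domain enters the nucleus, where it turns the DNA-binding protein RBPJ from a repressor into an activator of Hes and Hey genes. In the lung the pathway is known for setting secretory against ciliated fate in the airway epithelium, for building the muscular and pericyte coat of vessels through Notch3 and Jag1, and for artery and sprout formation through Notch4 and Dll4 in endothelium.

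Library totals were between 91.6 and 111.6 M units, or between 18.3 and 22.3 M fragments where 1 fragment is taken as 5 units. All 12 stromal markers were detected in every library, and their summed level was 24120 to 34650 CPM (counts per M) in SmoM2-labelled libraries and 21780 to 35670 CPM in controls. Smo, the gene of Smoothened, averaged 129 ± 8.80 CPM in SmoM2-labelled libraries and 124 ± 13.3 CPM in controls (SD, n = 4 each). Whether reads of SmoM2 are counted under Smo was not tested. Gli1, the transcription factor that Hedgehog signalling induces, averaged 101 ± 21.5 CPM in SmoM2-labelled libraries and 99.3 ± 32.9 CPM in controls (SD, n = 4 each), so the groups are called here by their labels. Marker levels set some libraries apart. Control 4 had 44.4 CPM of the endothelial cadherin Cdh5 against 3.01 to 10.4 CPM in the other 7 libraries, and 992 CPM of the surfactant gene Sftpc against 86.4 to 564 CPM. SmoM2 4 had the highest summed immune level, 1634 CPM against 513 to 834 CPM elsewhere. The summed epithelial level was highest in control 4, 1477 CPM, and next in SmoM2 3, 958 CPM. Cartilage markers summed to between 134 CPM in control 4 and 1812 CPM in SmoM2 1.

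None of the 10 Notch genes passed the test between the groups. By edgeR's quasi-likelihood test with Benjamini-Hochberg adjustment over the 20162 genes, 0 of 10 had an adjusted p under 0.05, and 0% of all genes tested did. At an unadjusted p under 0.05 the test counted 1 of 10, the ligand Dll1, lower in SmoM2-labelled libraries. The share of all genes at that level was 3.75%, with 2.01% lower and 1.74% higher. DESeq2 called 0 of the 10 and 0.275% of all genes, limma-voom called 0 of the 10 and 0 genes in all, and the authors' deposited table gives an adjusted p under 0.05 for none of the 10 and for 0.0498% of its genes. No Notch gene had groups that did not overlap, which was the case for 2.44% of all genes. By fitted value 3 of the 10 were higher and 7 were lower in SmoM2-labelled cells, with a median log2 difference, SmoM2-labelled over control, of −0.15 against 0.00 over all genes tested, of which 51% were lower. The median size of the difference was 0.20 on the log2 scale against 0.15 over all genes.

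**Figure D1:**
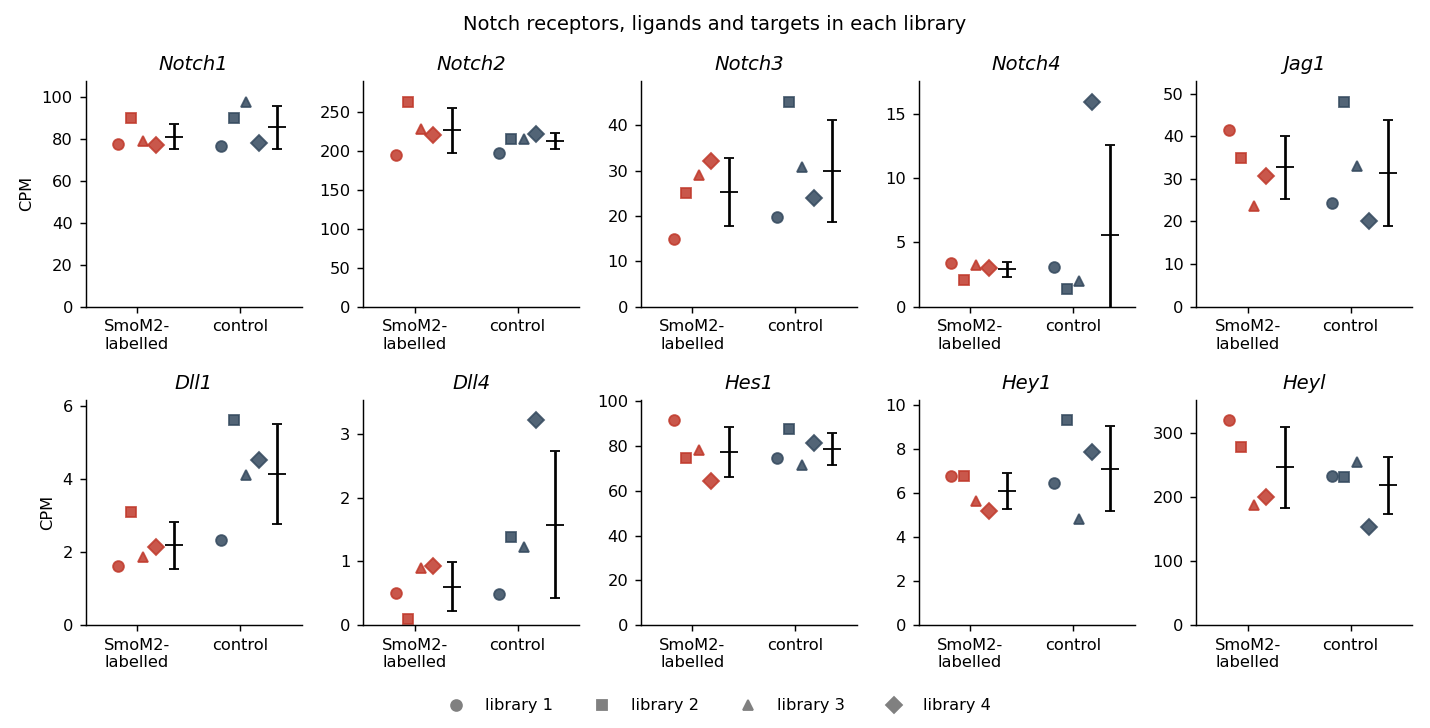
Level in CPM of the 10 Notch genes in 4 SmoM2-labelled (red) and 4 control (blue) libraries, with a marker shape for each library number and black bars for mean and SD, cut at 0. The groups overlap for every gene, and the Notch4 value of control 4, 15.97 CPM, lies far above the other 7.

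**Figure D2:**
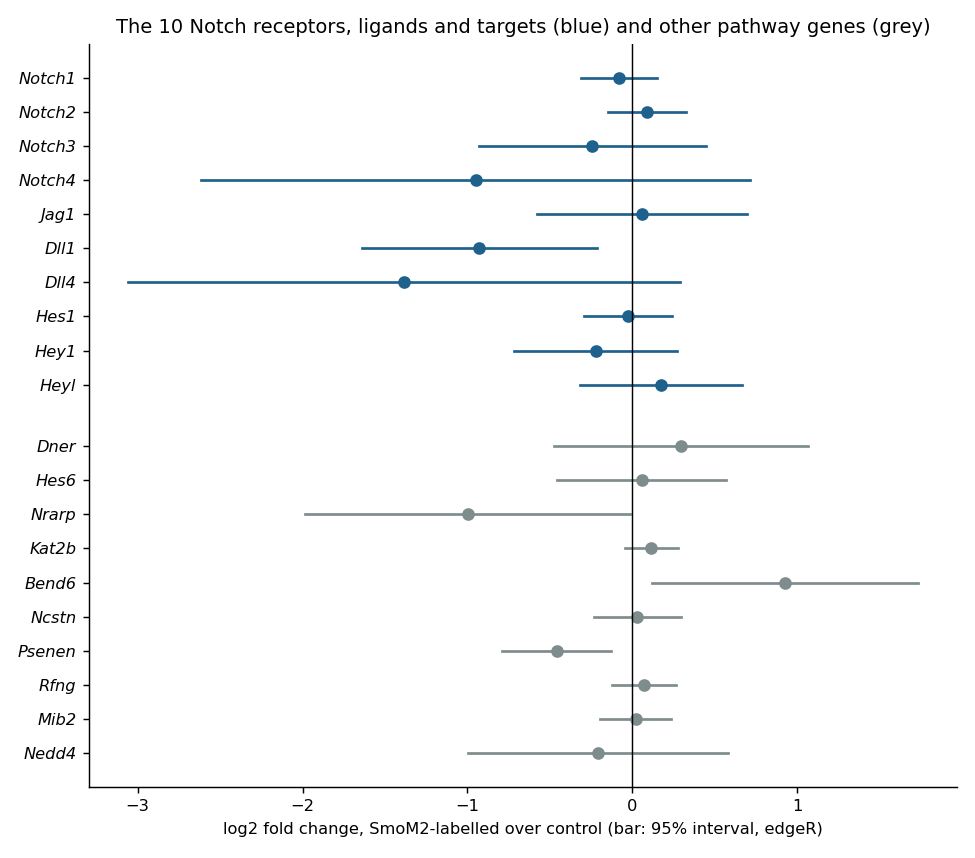
Log2 fold change, SmoM2-labelled over control, with the 95% interval from edgeR, for the 10 Notch genes (blue) and 10 other pathway genes (grey). Intervals are narrow for Notch1, Notch2 and Hes1 and wide for Notch4 and Dll4, and among the 10 only that of Dll1, −1.64 to −0.21, leaves out 0.

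Notch2 was the receptor with the highest level in every library. The gene lies on chromosome 3, 98013527 to 98150361, plus strand (mm10). It had 194.6, 263.8, 228 and 220.5 CPM in SmoM2-labelled libraries, against 197.8, 215.4, 215.8 and 222.5 CPM in controls. The values ran close together, with SmoM2 2 highest and SmoM2 1 lowest, and the groups overlapped. On the log2 scale the difference was 0.09 with a 95% interval from −0.15 to 0.33, which leaves room for at most a 1.26-fold higher mean in SmoM2-labelled cells at that confidence.

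Notch1, the receptor best known from T cell and epithelial fate choices, lies on chromosome 2, 26457903 to 26516663, minus strand. It had 77.83, 90.09, 79.18 and 77.47 CPM in SmoM2-labelled libraries, against 76.7, 90.07, 98.05 and 78.07 CPM in controls. SmoM2 2, control 2 and control 3 were high, the other libraries lay close together below them, and the groups overlapped. The log2 difference was −0.08, with a 95% interval from −0.31 to 0.15. It was the steadiest of the 10 genes, its highest library being 1.28-fold its lowest.

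Notch3, the receptor of pericytes and vascular smooth muscle, lies on chromosome 17, 32120820 to 32166852, minus strand. It had 14.93, 25.16, 28.95 and 32.23 CPM in SmoM2-labelled libraries, against 19.74, 45.27, 30.79 and 23.96 CPM in controls. SmoM2 1 was lowest and control 2 highest, and the groups overlapped. The fitted log2 difference was −0.24 with a 95% interval from −0.93 to 0.45. Its sign rested on control 2: without that library the difference was 0.02. Pericyte markers were also highest in control 2 by their mean level. Rgs5, a pericyte marker named here as an example, had 32.9 CPM there against 6.61 to 18.2 CPM in the other 7 libraries. The list as a whole rose less, with a sum of 575 CPM in control 2 against 544 CPM in SmoM2 3, the next highest. Over the 10 pericyte markers the summed level was 384 to 544 CPM in SmoM2-labelled libraries and 351 to 575 CPM in controls, with Trpc6 at 0 in SmoM2 1 and no other marker at 0. Apart from the correlation across libraries given with the other relations, the part of pericytes in the Notch3 values was not tested.

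Notch4, the receptor of endothelial cells, lies on chromosome 17, 34564268 to 34588503, plus strand. It had 3.366, 2.055, 3.199 and 2.964 CPM in SmoM2-labelled libraries, against 3.045, 1.356, 1.983 and 15.97 CPM in controls. Control 4 was high and the other 7 libraries were low and mixed. With all 8 libraries the log2 difference was −0.95, with a 95% interval from −2.61 to 0.72. Over the alternatives that kept all libraries it lay between −1.01 and −0.30, the latter by limma-voom. Without control 4 it was 0.45 (adjusted p = 0.9993, edgeR's quasi-likelihood test), the opposite direction, so the lower SmoM2 mean came from that library. Some endothelial markers, named here as examples, were high in the same library. Tie1 had 14.7 CPM in control 4 and 1.26 to 4.58 CPM in the others, Cldn5 16.6 CPM and 1.05 to 4.52 CPM, and Pecam1 32.8 CPM and 7.40 to 10.96 CPM. The list of 12 as a whole rose less, with a sum of 332 CPM in control 4 against 295 CPM in SmoM2 4, the next highest. Over the 12 endothelial markers, none of them a Notch gene and none at 0 in any library, the summed level was 217 to 295 CPM in SmoM2-labelled libraries and 233 to 332 CPM in controls. Gene by gene, 9 of the 12 were lower in SmoM2-labelled libraries, against 51% of all genes, and 2 were lower without overlap, against 1.42%. Their median log2 difference was −1.05, and edgeR called none. The mean log2 CPM of the list was 2.34 to 3.09 in SmoM2-labelled libraries and 2.61 to 4.27 in controls. Across the 8 libraries Notch4 had r of 0.64 with that mean level (exact permutation p = 0.122, adjusted p = 0.532). Its rho was −0.10 (exact permutation p = 0.840, adjusted p = 0.966). Without control 4 and SmoM2 1 r was −0.40, and with group means subtracted 0.70. The cells were sorted on the reporter, and apart from this correlation the part of endothelial cells in the Notch4 value was not tested.

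**Figure D3:**
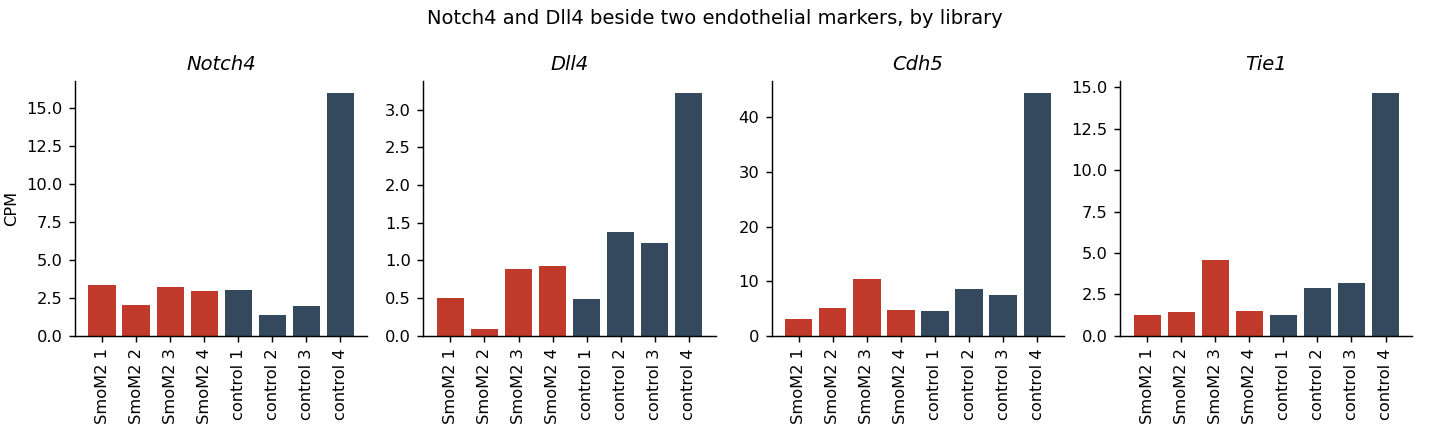
Level in CPM of Notch4, Dll4 and, as examples from 12 endothelial markers, Cdh5 and Tie1 in each of the 4 SmoM2-labelled (red) and 4 control (blue) libraries. Control 4 is the highest library in all 4 panels.

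Promoter sequences are shown for the 3 Notch genes with the widest gap between group means on the log2 scale, Notch4, Dll1 and Dll4, the genes whose values turned most on single libraries or came nearest to the threshold. They come from RefSeq on GRCm38.p6, the assembly of mm10, and run from 250 bases before the annotated start to 3 bases after it. The Notch4 window is chr17:34564045-34564297 on the plus strand. Capitals mark a match to the AP-1 motif TGANTCA that begins 4 bases before the RefSeq start and runs across it. By the gene coordinates given above, from another annotation, the match lies inside the gene.
Notch4: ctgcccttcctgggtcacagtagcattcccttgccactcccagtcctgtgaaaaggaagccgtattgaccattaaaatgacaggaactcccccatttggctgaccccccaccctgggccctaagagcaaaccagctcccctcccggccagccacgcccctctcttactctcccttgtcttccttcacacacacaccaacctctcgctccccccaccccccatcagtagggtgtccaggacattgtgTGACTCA
The Dll1 window is chr17:15376930-15377182 on the minus strand, the upstream one of 2 annotated starts, and capitals mark an AP-1 match 109 bases before it.
Dll1: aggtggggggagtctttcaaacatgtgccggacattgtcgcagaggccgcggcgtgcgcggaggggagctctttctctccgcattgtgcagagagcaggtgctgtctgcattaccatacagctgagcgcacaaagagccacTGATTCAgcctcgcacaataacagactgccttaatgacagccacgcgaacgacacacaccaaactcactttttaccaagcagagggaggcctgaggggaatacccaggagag
The Dll4 window is chr2:119325534-119325786 on the plus strand and held no match to any motif searched, so none of its letters is in capitals.
Dll4: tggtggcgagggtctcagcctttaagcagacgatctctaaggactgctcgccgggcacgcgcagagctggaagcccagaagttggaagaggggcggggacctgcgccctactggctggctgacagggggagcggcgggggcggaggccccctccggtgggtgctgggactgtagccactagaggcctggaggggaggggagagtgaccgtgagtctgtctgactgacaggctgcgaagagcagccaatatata
The motifs searched on both strands were the RBPJ core TGGGAA, AP-1 TGANTCA and the ETS core CGGAAG. Over 32841 windows of the same length these were held by 21.8%, 6.86% and 13.9% of windows in that order. The table held 8 windows for 7 of the 10 genes, and the other matches there were limited to 1 ETS core, 50 bases before the start of Notch2. A match describes letters in the window and not a bound site, and no match says only that the letters are not in that window.

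The 3 ligands had their differences in both directions. Jag1, the ligand that stromal and muscle cells of vessel walls are known to carry, lies on chromosome 2, 137081456 to 137116644, minus strand. It had 41.45, 35.02, 23.64 and 30.78 CPM in SmoM2-labelled libraries, against 24.4, 48.2, 32.93 and 20.09 CPM in controls. The highest and the lowest library were both controls, and the SmoM2-labelled values lay between them. Its log2 difference was 0.06 with a 95% interval from −0.58 to 0.70. Its sign turned when control 1, control 4 or SmoM2 1 was left out, with values from −0.10 to −0.04.

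Dll1, a ligand needed for somite formation and for marginal zone B cells, lies on chromosome 17, 15367354 to 15376872, minus strand. It had 1.624, 3.105, 1.855 and 2.15 CPM in SmoM2-labelled libraries, against 2.337, 5.622, 4.107 and 4.529 CPM in controls. Control 2, control 3 and control 4 lay above every SmoM2-labelled library, while control 1 lay below SmoM2 2. Dll1 averaged 2.18 ± 0.651 CPM in SmoM2-labelled libraries and 4.15 ± 1.37 CPM in controls (SD, n = 4 each), a log2 difference of −0.93 with a 95% interval from −1.64 to −0.21. The unadjusted p was 0.0168 and the adjusted p 0.9999 by edgeR's quasi-likelihood test, so the difference failed the correction. DESeq2 gave an unadjusted p of 0.00437 and an adjusted p of 0.406, and over the alternatives that kept all libraries the difference lay between −0.95 and −0.90. The authors' deposited table gives Dll1 a log2 fold change of −0.92 with p = 0.00651 and an adjusted p of 1.

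Pericyte and mesothelial levels are given beside Dll1. Control 2, the library with the most Dll1, also had the highest mean level of pericyte markers, and its removal took the difference to −0.75 with an unadjusted p of 0.0502 by edgeR. The 10 mesothelial markers, none at 0 in any library, summed to 117 to 244 CPM in SmoM2-labelled libraries and 291 to 529 CPM in controls, without overlap. Across the 8 libraries Dll1 had r of 0.51 with them (exact permutation p = 0.203, adjusted p = 0.581) and rho of 0.38 (exact permutation p = 0.360, adjusted p = 0.800). With group means subtracted r was −0.08, and without control 3 and SmoM2 3 it was 0.24. Control 1, the lowest control for Dll1, had a mesothelial sum of 459 CPM, exceeded by control 3 alone. Dll1 also shares 867 exon bases, 20.5% of its exon length, with A930024N18Rik on the opposite strand. The library kit as described does not mark strand, so reads there cannot be assigned, and A930024N18Rik had 0.126 to 0.398 CPM in SmoM2-labelled libraries and 0 to 0.459 CPM in controls. The share is smaller in Notch1 (7.5% with 0610009E02Rik), Notch3 (6.03% with Gm17276), Dll4 (5.56% with Gm14207) and Notch2 (5.02% with Gm42820, same strand). Reads in those shared bases cannot be assigned either. The overlapping genes had at most 0.411, 0.763, 0.0797 and 0.85 CPM in that order.

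Dll4, the ligand of arterial and sprouting endothelium, lies on chromosome 2, 119325784 to 119335962, plus strand, and was the lowest of the 10 genes. It had 0.5058, 0.09134, 0.8902 and 0.9281 CPM in SmoM2-labelled libraries, against 0.4864, 1.376, 1.231 and 3.219 CPM in controls. Control 2, control 3 and control 4 lay above all SmoM2-labelled libraries, and control 1 lay below 3 of them. SmoM2 2 was under the 0.164 CPM that a count of 0 allows in that library, taken as 3 fragments, and the highest library, control 4, held about 76.2 fragments. Such limits cover counting error only. Between the groups the log2 difference was −1.38 with a 95% interval from −3.06 to 0.29 (adjusted p = 0.9999, edgeR's quasi-likelihood test). Without control 4 it was −0.77 by the same test. In control 4 Cdh5 and Tie1, named here as examples, were high. The 12 endothelial markers summed to 332 CPM there, against 295 CPM in SmoM2 4, the next highest. The median of that sum was 266 CPM in SmoM2-labelled libraries and 263 CPM in controls. Endothelial markers, whose median log2 difference was −1.05, were lower in SmoM2-labelled libraries for 9 of 12, against 51% of all genes. Apart from the correlation across libraries, their part in the Dll4 values was not tested.

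The targets had like group means. Hes1, a repressor that holds progenitors undifferentiated and that Notch induces directly, lies on chromosome 16, 30064384 to 30067796, plus strand. It had 91.68, 74.88, 78.44 and 64.49 CPM in SmoM2-labelled libraries, against 74.58, 87.46, 71.67 and 81.58 CPM in controls. The SmoM2-labelled values were the more spread, with SmoM2 1 highest and SmoM2 4 lowest of all 8, and the groups overlapped. On the log2 scale the difference was −0.03 with a 95% interval from −0.30 to 0.24.

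Hey1, a repressor of the same family known from vessels and heart, lies on chromosome 3, 8663359 to 8667256, minus strand. It had 6.78, 6.77, 5.647 and 5.19 CPM in SmoM2-labelled libraries, against 6.46, 9.31, 4.793 and 7.867 CPM in controls. The controls held both the highest and the lowest value. The log2 difference was −0.22 with a 95% interval from −0.72 to 0.27. Each group held 2 male and 2 female libraries by Xist and Y-linked genes, and in males the log2 difference of Hey1 was 0.28, in females −0.66. The test of that difference between sexes gave an unadjusted p of 0.0265 and an adjusted p of 1 by edgeR's quasi-likelihood test, so it failed the correction, and none of the 10 genes passed it.

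Heyl, the target most closely tied to Notch3 in vessel wall cells, lies on chromosome 4, 123233556 to 123249875, plus strand. It had 320.5, 278.1, 187.3 and 199.6 CPM in SmoM2-labelled libraries, against 233.2, 230.9, 254.9 and 153.7 CPM in controls. SmoM2 1 and SmoM2 2 were the highest libraries, control 4 was the lowest, and the groups overlapped. The fitted log2 difference was 0.18 with a 95% interval from −0.32 to 0.67.

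Levels of different genes were compared per kilobase of exon, since longer genes give more fragments. Heyl and Hes1 stood at the top with 45.4 ± 10.4 and 38.3 ± 4.29 CPM per kb over the 8 libraries (SD). Heyl was above Hes1 in 6 of 8 libraries, a gap smaller than its spread, and the order of their means turned when the length of the longest coding transcript was used, with 51.2 CPM per kb for Heyl and 53.2 for Hes1. Notch2 came next at 20.4 ± 1.97 CPM per kb, below Hes1 and above Notch1 in all 8 libraries. Notch1 at 5.86 ± 0.570 and Jag1 at 5.50 ± 1.63 CPM per kb were neighbours within their spread, Notch1 being above in 6 of 8 libraries. By coding transcript length they stood at 8.79 and 5.71 CPM per kb, and Notch1 was above Jag1 in all 8.

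Below them Notch3 stood at 3.42 ± 1.13 and Hey1 at 2.02 ± 0.451 CPM per kb, Notch3 being above Hey1 in 7 of 8 libraries, and in 5 of 8 by coding transcript length. The last 3 places were taken by Dll1 at 0.751 ± 0.342, Notch4 at 0.526 ± 0.594 and Dll4 at 0.283 ± 0.248 CPM per kb, each above the next in 6 of 8 libraries and within its spread. The targets, Notch1, Notch2, Notch3 and Jag1 were all above 1 CPM per kb in every library. Among the receptors Notch2 took 67.6% to 71.6% of the summed level per length in SmoM2-labelled libraries and 62.3% to 69.1% in controls. Notch4 took 0.746% to 1.62% in SmoM2-labelled libraries, and in controls 0.524% to 1.42% in 3 libraries and 6.38% in control 4.

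**Figure D4:**
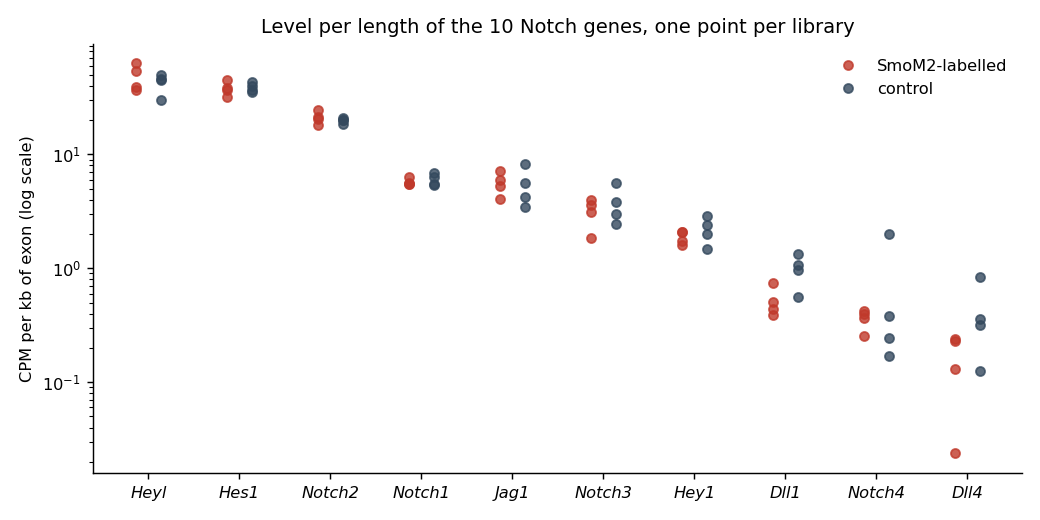
Level of each of the 10 Notch genes in CPM per kilobase of exon on a log scale, with 4 SmoM2-labelled (red) and 4 control (blue) libraries as points, ordered by mean. The means run from 45.4 CPM per kb for Heyl to 0.283 for Dll4.

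The spread over libraries differed between the 10 genes. The ratio of the highest to the lowest library was 1.28 for Notch1, 1.36 for Notch2 and 1.42 for Hes1, 1.94 for Hey1, 2.09 for Heyl and 2.40 for Jag1. It was 3.03 for Notch3, 3.46 for Dll1, 11.8 for Notch4 and 35.2 for Dll4, whose lowest library was under its detection limit. Depth was close to equal over the libraries.

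Of 54 other genes of the pathway, 51 passed the filter on low counts, and Dll3, Dlk2 and Hes5 did not. None of the 51 had an adjusted p under 0.05 by edgeR, DESeq2 or limma-voom, and 3 had an unadjusted p under 0.05 by edgeR, against 3.75% of all genes. By fitted value 32 of them were higher and 19 lower in SmoM2-labelled cells, with a median log2 difference of 0.04. Among other ligands and ligand-like proteins the most abundant per length was Dner, a Notch-binding membrane protein, with 46.8 ± 18.8 CPM in SmoM2-labelled libraries and 38.2 ± 13.0 CPM in controls (SD, n = 4 each).

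Among other targets, 1 of 5 was higher and 4 were lower. Nrarp, a feedback inhibitor that Notch itself induces, had 0.642, 0.3996, 0.9644 and 0.8808 CPM in SmoM2-labelled libraries, against 0.6767, 1.655, 1.133 and 2.307 CPM in controls. Control 4 was again highest, and only control 1 lay within the SmoM2-labelled range. Its log2 difference was −0.998 with a 95% interval from −1.98 to −0.01 (adjusted p = 0.9999, edgeR's quasi-likelihood test), and −0.68 without control 4, the value nearest to 0 over the left-out libraries. Hes6, the most abundant of these per length, averaged 7.40 ± 0.398 CPM in SmoM2-labelled libraries and 7.11 ± 2.30 CPM in controls (SD, n = 4 each).

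The genes of nuclear repression keep Notch targets off when no receptor is cut. All 7 were higher by fitted value, from 0.05 to 0.93 on the log2 scale, also with other scaling factors, and none passed the test. Of all 20162 genes tested 9872 were higher. The median log2 difference of the 7 was 0.07, under the median size of 0.15 over all genes, and the 0.93 was that of Bend6. Bend6, an antagonist of Notch-driven transcription known from mouse neural cells, had 1.916, 2.386, 1.215 and 2.443 CPM in SmoM2-labelled libraries, against 0.9093, 0.7476, 1.732 and 0.8028 CPM in controls. The groups would be apart but for SmoM2 3 and control 3, which lay the other way round. Its log2 difference was 0.93 with a 95% interval from 0.12 to 1.73 (adjusted p = 0.9999, edgeR's quasi-likelihood test).

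In the nuclear complex, where 3 of 7 were higher and 4 lower, Rbpj itself differed by −0.01. Kat2b, an acetyltransferase of the activating complex, had 78.28, 79.35, 82.8 and 80.87 CPM in SmoM2-labelled libraries, against 70.96, 77.67, 78.2 and 69.66 CPM in controls. Every SmoM2-labelled library was above every control, which held for 1.02% of all genes, but the gap between SmoM2 1 and control 3 was under 0.1 CPM. Its log2 difference was 0.12 with a 95% interval from −0.04 to 0.27 (adjusted p = 0.9999, edgeR's quasi-likelihood test).

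Of the 9 receptor proteases, 6 were higher and 3 lower. Psenen, the smallest subunit of gamma-secretase, had 15.5, 20.66, 23.55 and 15.81 CPM in SmoM2-labelled libraries, against 25.56, 25.62, 27.57 and 25.09 CPM in controls. Every SmoM2-labelled library was below every control, which held for 1.42% of all genes. Between the groups the log2 difference was −0.46 with a 95% interval from −0.79 to −0.13 (adjusted p = 0.9999, edgeR's quasi-likelihood test). Ncstn, another subunit of the same enzyme and the most abundant of the list per length, had 115 ± 14.7 CPM in SmoM2-labelled libraries and 112.1 ± 11.6 CPM in controls (SD, n = 4 each).

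The enzymes that modify and turn over receptors and ligands gave no difference that passed the test. Of 6 glycosylation genes 4 were higher, of 5 ligand ubiquitin ligases 4, and of 9 turnover genes 5. Their most abundant genes per length were Rfng, a Fringe sugar transferase, with a log2 difference of 0.07, Mib2, a ligase acting on ligands, with 0.02, and Nedd4, a ligase acting on receptors, with −0.21.

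Levels of the 10 genes were also set against each other and against marker lists across the 8 libraries, as log2 CPM with exact two-sided permutation tests. None of 45 pairs and none of 100 relations with marker lists had an adjusted p under 0.05, with 3 and 11 at an unadjusted p under 0.05. The sexes hold 4 libraries each, too few for a value within each.

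Hes1 had the largest pooled r in size of the relations computed, an inverse one with the mean level of 14 immune markers. Pearson's r was −0.93 (exact permutation p = 0.00117, adjusted p = 0.102) and Spearman's rho −0.86 (exact permutation p = 0.0107, adjusted p = 0.357). Without the 2 libraries farthest from the median, SmoM2 1 and SmoM2 4, r was −0.76, and with group means subtracted −0.95. The summed level of the immune markers was 525 to 1634 CPM in SmoM2-labelled libraries and 513 to 732 CPM in controls. SmoM2 4, the lowest library for Hes1, had 93.0 CPM of the leukocyte antigen Ptprc against 23.6 to 47.2 CPM elsewhere, and 109 CPM of the macrophage receptor Mrc1 against 16.9 to 43.9 CPM.

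Notch1 went with 17 stress and inflammation genes of dissociated cells. Here r was 0.87 (exact permutation p = 0.00203, adjusted p = 0.102) and rho 0.81 (exact permutation p = 0.0218, adjusted p = 0.363), and r was 0.75 without control 3 and SmoM2 4 and 0.88 with group means subtracted. The summed level of that list was 16120 to 34280 CPM in SmoM2-labelled libraries and 26430 to 41720 CPM in controls.

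Jag1 went with 12 stromal markers, with r of 0.84 (exact permutation p = 0.00575, adjusted p = 0.144) and rho of 0.86 (exact permutation p = 0.0107, adjusted p = 0.357). Its r was 0.64 without control 4 and SmoM2 3 and 0.84 with group means subtracted. With 8 cartilage markers Jag1 had r of 0.76 (exact permutation p = 0.0326, adjusted p = 0.341) and rho of 0.81 (exact permutation p = 0.0218, adjusted p = 0.363). There r was 0.84 without control 3 and control 4 and 0.77 with group means subtracted. Dll1 went with 10 pericyte markers, with r of 0.85 (exact permutation p = 0.00449, adjusted p = 0.144), rho of 0.83 (exact permutation p = 0.0154, adjusted p = 0.363), and r of 0.63 without control 2 and SmoM2 1. With group means subtracted it was 0.70 (exact within-group permutation p = 0.0990, adjusted p = 0.550). Dll1 also went with 6 arterial endothelial markers, none of them a Notch gene. There r was 0.74 (exact permutation p = 0.0355, adjusted p = 0.341) and rho 0.71 (exact permutation p = 0.0576, adjusted p = 0.534). That r was 0.73 without control 1 and control 2 and 0.79 with group means subtracted. Of the 10 pericyte markers 8, like Dll1, were lower in SmoM2-labelled libraries, against 51% of all genes. Their summed level went the other way, with a median of 467 CPM in SmoM2-labelled libraries and 423 CPM in controls. Apart from the correlation across libraries, the part of pericytes in the Dll1 values was not tested. For Notch3 and the pericyte markers r was 0.76 (exact permutation p = 0.0338, adjusted p = 0.341) and rho 0.45 (exact permutation p = 0.268, adjusted p = 0.748). With group means subtracted r was 0.82. Without control 2 and SmoM2 1 it was −0.16, so that relation rests on those libraries.

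Dll4 went with the 12 endothelial markers, with r of 0.82 (exact permutation p = 0.0211, adjusted p = 0.320) and rho of 0.88 (exact permutation p = 0.00724, adjusted p = 0.357), and r was 0.82 without control 4 and SmoM2 1 and 0.73 with group means subtracted. Heyl had r of −0.78 with the same endothelial markers (exact permutation p = 0.0224, adjusted p = 0.320) and rho of −0.69. There r was −0.26 without control 4 and SmoM2 1 and −0.80 with group means subtracted. With the stromal markers Heyl had r of 0.77 (exact permutation p = 0.0224, adjusted p = 0.320) and rho of 0.62. That r was 0.09 without control 4 and SmoM2 3 and 0.76 with group means subtracted. With the 10 mesothelial markers Heyl had r of 0.43 (exact permutation p = 0.290, adjusted p = 0.674) and rho of 0.57 (exact permutation p = 0.151, adjusted p = 0.728). Without control 3 and SmoM2 3 r was 0.26. With group means subtracted it was 0.95 (exact within-group permutation p = 0.00174, the smallest possible there, adjusted p = 0.174). That was the largest in size of the group-centred values. In each group both male libraries lay above both female ones for Heyl and for these markers, so sex cannot be told apart from that relation.

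Between Notch genes, Notch4 and Jag1 had r of −0.74 (exact permutation p = 0.0198, adjusted p = 0.575) and rho of −0.62 (exact permutation p = 0.115, adjusted p = 0.928). Without control 2 and control 4 it was −0.25, so that relation rests on those libraries. Jag1 and Heyl had r of 0.73 (exact permutation p = 0.0381, adjusted p = 0.575) and rho of 0.71 (exact permutation p = 0.0576, adjusted p = 0.864), with r of 0.83 without control 2 and control 4 and 0.73 with group means subtracted. Hes1 and Hey1 had r of 0.72 (exact permutation p = 0.0439, adjusted p = 0.575) and rho of 0.83 (exact permutation p = 0.0154, adjusted p = 0.692), with r of 0.87 without SmoM2 1 and SmoM2 4 and 0.72 with group means subtracted.

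**Figure D5:**
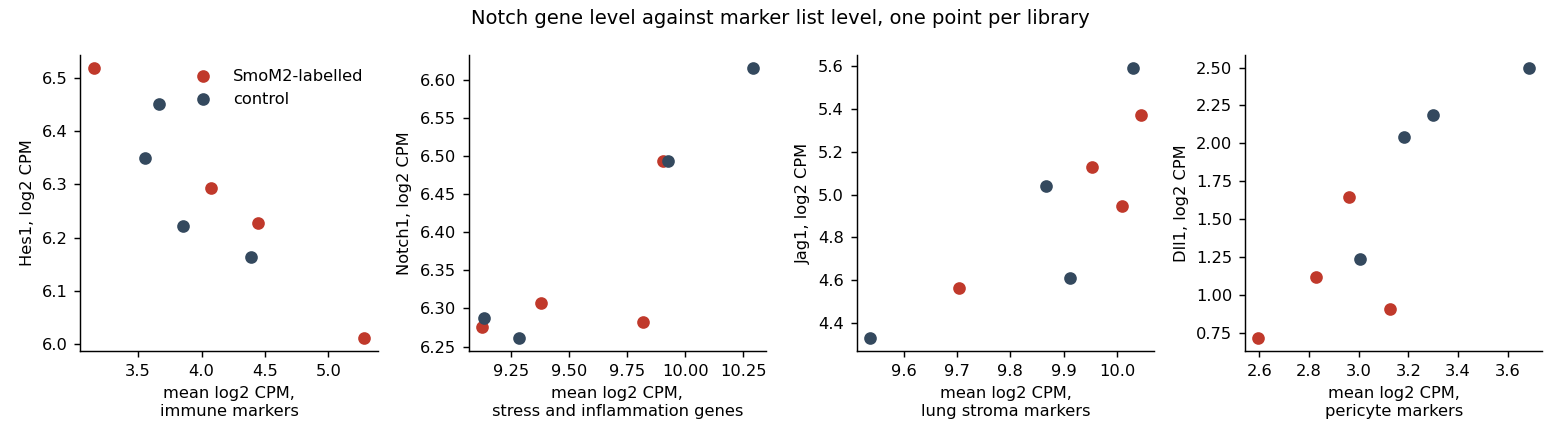
Mean log2 CPM of a marker list (horizontal) against log2 CPM of a Notch gene (vertical), with 1 point per library, SmoM2-labelled in red and control in blue. Hes1 is lower where immune markers are higher (r = −0.93), and Notch1, Jag1 and Dll1 are higher where stress, stromal and pericyte markers are higher (r = 0.87, 0.84 and 0.85).

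For 5 of the 10 genes the most alike patterns over the 8 libraries were sought among genes averaging 5 CPM or more, by Pearson's r of log2 CPM, as a description over 8 points. Notch3 was most like Tmem51 (r = 0.98), Hdac5 (0.95) and Nav3 (0.94). Heyl was most like Gm7665 (r = 0.98), Dync1li1 (0.97) and Sept2 (0.97). Jag1 was most like the transcription factors Foxc2 (r = 0.98) and Klf7 (0.98), and Bex3 (0.97). Hes1 was most like Nbn (r = 0.94), Gatc (0.94) and Pcdhb3 (0.94). Notch4 was most like Zfp444 (r = 0.99), Prodh (0.97) and Tbc1d1 (0.96), and Notch4 was high in control 4 alone. Each was the highest of 11394 or more candidates, so these values carry no test.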

How the data were processed

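RNA of sorted GLI2+ lung stromal cells was sequenced from 4 SmoM2-labelled and 4 control mice. FastQC, HISAT, StringTie and DESeq are listed in the submitters' processing notes, together with mm10, with neither version nor role. The authors deposited expected counts per gene, whole numbers used without further rounding. The most frequent value above 0 was 5 units, taken as 1 fragment, an assumption the values do not settle. The comparison that the authors deposited holds mean normalised signal in each group, the fold (ratio) between them, log2 of that fold, and p-values. Its means were matched from the counts to a relative difference of 2.3e-09, with SmoM2 over control.

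Column names give group and number, not animal. The 8 titles carry different animal numbers, and p-values therefore rest on variation among mice. The main test was edgeR 4.0.16 (R 4.3.3) quasi-likelihood, robust, with TMM factors, filterByExpr and Benjamini-Hochberg adjusted p under 0.05. DESeq2 1.42.0 and limma 3.58.1 (voom) were alternatives. CPM uses TMM library sizes, and log2 CPM a prior count of 2. Relations used all 40320 pairings of 8 libraries, and those with group means subtracted used the 576 pairings within groups. Coordinates are 1-based from GENCODE M21 (mm10). Exon length is the union of all exons. The tests were checked on simulated data. The named pathway genes are those with an unadjusted edgeR p under 0.05 or groups that do not overlap, and otherwise the highest per length of each list. Rbpj was added after its values were seen, and 1 gene that the rule names is not reported here. The genes and lists were chosen with earlier results of these data known. Alternatives chosen after seeing the data were the coding transcript length, the sex interaction and permutation within groups.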

Additional observations from a re-analysis of the deposited data

Results flagged for a closer look

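A total of 5 values lay far from the other 3 libraries of their group by Dixon's 95% criterion, out of 40 groups of 4 libraries examined, and chance alone gives about 1 in 20. Notch4 had 15.97 CPM in control 4, against 1.356 to 3.045 CPM in the other controls. Notch1 had 90.09 CPM in SmoM2 2, with 77.47 to 79.18 CPM in the other SmoM2-labelled libraries. Hes6 had 7.993 CPM in SmoM2 4, against 7.158 to 7.242 CPM in the other SmoM2-labelled libraries. Bend6 had 1.732 CPM in control 3, against 0.7476 to 0.9093 CPM in the other controls. Nedd4 had 1053 CPM in SmoM2 3, against 492.1 to 558.5 CPM in the other SmoM2-labelled libraries.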

How the results depend on the processing

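Over all genes edgeR called 0, and DESeq2 called 67 of 24384 (31 higher and 36 lower in SmoM2-labelled libraries). Leaving out 1 library at a time gave 0 to 1 called gene, the 1 without SmoM2 4. None of the 10 Notch genes and none of the other pathway genes was called under any of the 17 alternatives run. Some single differences turned sign, that of Notch4 (−0.95 with all libraries) without control 4 and the others from smaller values. Leaving out 1 library at a time took the log2 difference of Notch3 to between −0.3969 and 0.0238, of Notch4 to between −1.28 and 0.45, of Jag1 to between −0.10 and 0.34 and of Hes1 to between −0.1221 and 0.0517. For Hes6 the range was −0.0853 to 0.2619, for Ncstn −0.0270 to 0.0893 and for Mib2 −0.0506 to 0.0657. Dll1 kept its direction in all of them, from −1.15 to −0.75. Without normalisation factors Mib2 was at −0.0033. Without the 2 libraries farthest from the median, the correlation of Notch3 with pericyte markers was −0.16 and that of Notch4 with endothelial markers −0.40. That of Dll1 with mesothelial markers was −0.0810 with group means subtracted. The causes were not tested. Dll4 and Nrarp have no value under the filter at 1 CPM. No paired analysis was possible because the titles number 8 different animals and the columns of the table carry no number that ties a SmoM2-labelled mouse to a control. With 4 libraries a group, the 95% intervals of the fold over control ran from 0.163 to 1.64 for Notch4 and from 0.120 to 1.22 for Dll4, so moderate differences of these genes were not detectable.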
